A study of Sus scrofa with 4 samples.

Results

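OAS1, OAS2 and IRF7 are 3 genes of the interferon response, described here across pig (Sus scrofa) blastocyst pools. Each was measured by 1 probe of the EMPV1 microarray, so 3 of its 43794 probes are the subject, or 3 of the 10022 genes with a symbol. The probes were EMPV1_33655 for OAS1, EMPV1_03975 for OAS2 and EMPV1_28799 for IRF7, found by the gene symbol that the platform table gives to their spots. The genes were chosen because their ratio of high NEFA over control was negative on these same arrays. Their ratios are therefore given as a description, with no test.

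Interferons are secreted proteins that warn neighbouring cells of viral nucleic acid. Their receptors signal through JAK kinases and STAT proteins to a large set of interferon-stimulated genes, many of which block viral replication. The OAS enzymes sense double-stranded RNA and make short oligoadenylates that activate the ribonuclease RNase L, and IRF7 is the transcription factor that amplifies the production of type I interferons. In the pig, the elongating conceptus itself secretes interferons around the time of implantation, after the blastocyst stage studied here.

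NEFA are non-esterified fatty acids, the free fatty acids released when body fat is mobilised. The study set blastocysts grown from oocytes that had been exposed to high NEFAs against blastocysts from oocytes in control conditions. Each of 4 two-colour arrays carried material of 1 exposed and 1 control pool, each of 10 blastocysts, collected on days 7 and 8, with no record of which pool came from which day. The high NEFA pool was labelled with Cy3 on replicates 1 and 2 and with Cy5 on replicates 3 and 4. The labels give no NEFA dose. GCs, left unexplained in the series title, were co-cultured as a monolayer, and whether the controls had them too is not said. The labels call the arrays biological replicates without naming separate sows or collections, so any p-value speaks only of these pools. Each SE and p-value used a moderated variance, in which the spread of a probe among the arrays is drawn towards that of all tested probes. Total RNA is the molecule named, whereas the protocols describe digested genomic DNA. Which of them was hybridised was not tested, and the ratios would not be transcript levels had it been DNA. In pools of whole embryos, fewer cells of a type and less RNA per cell cannot be told apart.

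Between 49.0% and 60.3% of probes lay above background in a channel, defined as the mean of the negative control spots plus 2 SD. Of 8 trophectoderm markers on the array, which mark the outer cell layer of the blastocyst, 7 were above background in all 8 channels, among them GATA3, TFAP2C and ELF5. Of 5 inner cell mass markers, LIN28A was so in all 8 channels. Of 7 leukocyte markers 0 were above background in all 8 channels, and PTPRC, CD8A, CSF1R and LYZ were above it in none. Of 5 granulosa cell markers, AMH was above background in all 8. The summed normalized intensity of the leukocyte markers was 1243 to 1422 in the high NEFA pools and 1297 to 1424 in the controls, and that of the granulosa markers 1665 to 2522 and 1605 to 2415.

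OAS1 was lower in the high NEFA pool than in the control pool of every array, by very different amounts. The scanner gave a median pixel intensity of 676 in the high NEFA pool against 1557 in the control pool on replicate 1, and of 478 against 389 on replicate 2. On replicate 3 it was 694 against 1153, and on replicate 4 it was 439 against 1592. On replicate 2 alone the raw value was higher in the high NEFA pool, which carried Cy3 there, the dye of higher background; raw values of different dyes are comparable only after normalization. Every OAS1 spot was above the background threshold of its channel, which lay at 310 to 369 in Cy3 and 205 to 247 in Cy5.

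**Figure D1:**
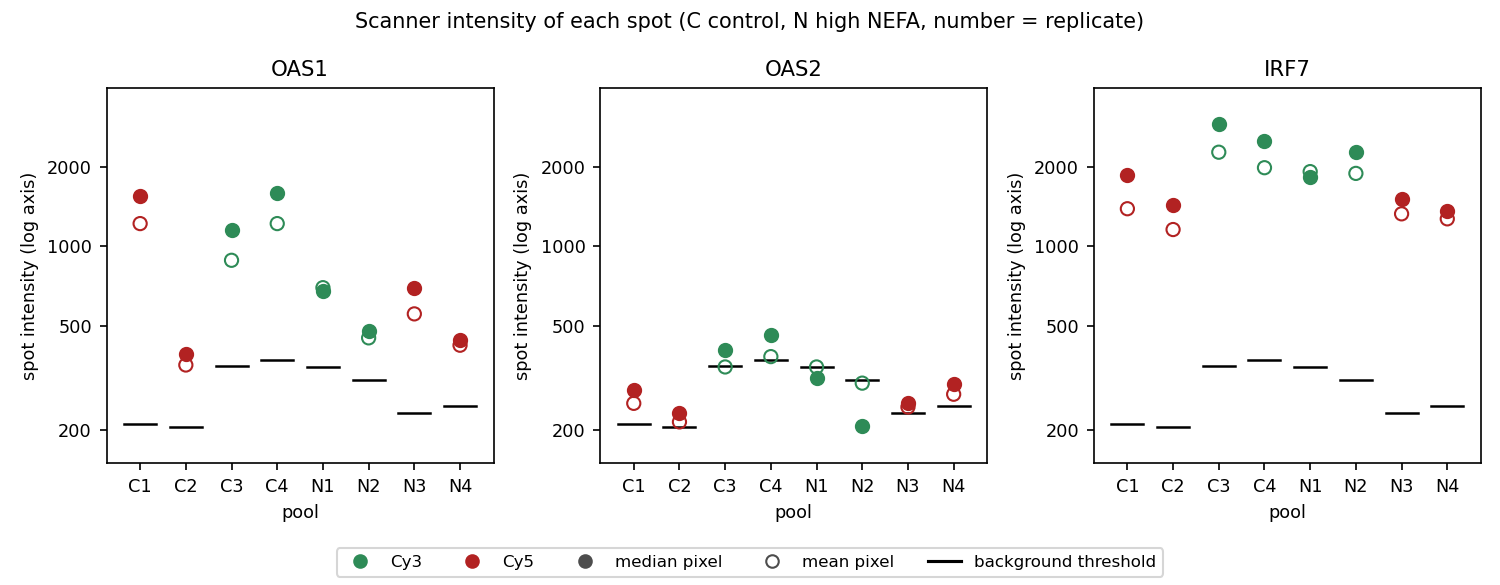
Scanner intensity (log axis) of the OAS1, OAS2 and IRF7 spots in the 4 control (C) and 4 high NEFA (N) pools, with filled points for the median and open points for the mean pixel intensity, colour for the dye, and a bar for the background threshold of each channel. The IRF7 and OAS1 points lie above their bars in all 8 channels, whereas the OAS2 points lie close to theirs, with the high NEFA medians of 316 and 208 on replicates 1 and 2 below.

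After normalization, the OAS1 level in log2 intensity was 8.96, 8.59, 9.67 and 8.79 in the high NEFA pools of replicates 1 to 4. In the control pools it was 10.81, 8.95, 9.82 and 10.17. Control pools thus spread over 1.85 log2 units and high NEFA pools over 1.08, and the groups overlapped, because the control pool of replicate 2 was as low as the exposed pools. The mean level was 9.00 ± 0.47 (SD, n = 4) in the high NEFA pools and 9.94 ± 0.77 (SD, n = 4) in the controls.

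As log2 of high NEFA over control, OAS1 had -1.84, -0.36, -0.15 and -1.38 on replicates 1 to 4. Replicates 1 and 4, which carry opposite dye orientations, showed a large difference, and replicates 2 and 3, also of opposite orientation, a small one. The fitted ratio was -0.93 ± 0.25 (SE, n = 4), a level 1.91-fold higher in the controls, and the dye term was 0.17. This SE was moderated towards other probes and is not the spread of OAS1 alone, whose 4 ratios had an SD of 0.81. Comparing pools that carried the same dye on different arrays, high NEFA minus control was -1.22 in Cy3 and -0.65 in Cy5, where the pools overlapped. Each of these values rests on only 2 pools of a kind. Without replicate 1 the fitted ratio was -0.56, and without replicate 4 it was -0.62. Among all 24453 probes with a ratio on every array, 995 (4.07%) were lower on all 4 arrays, as OAS1 was. The spread of OAS1 between arrays, 1.70 from lowest to highest ratio, was equalled or exceeded by 603 of 6213 genes (9.71%).

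**Figure D2:**
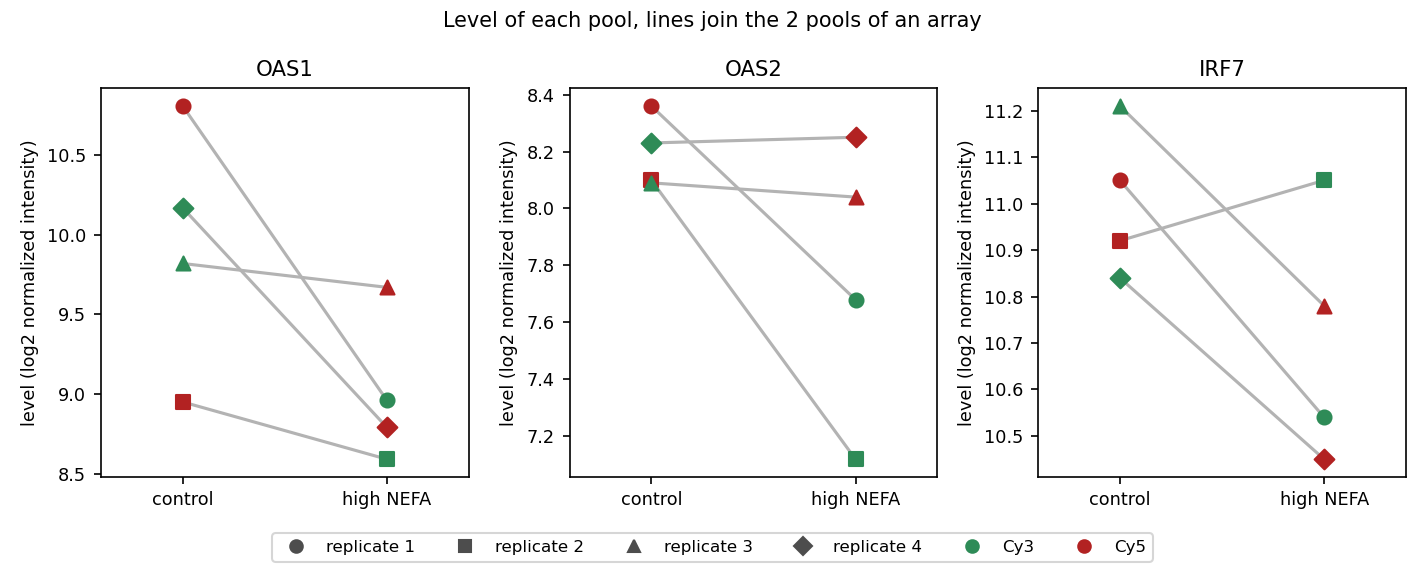
Level (log2 intensity after loess and scaling between arrays) of OAS1, OAS2 and IRF7 in each pool, with a line joining the 2 pools of an array, marker shape for the replicate and colour for the dye; the panels have separate axes. OAS1 differs most among the control pools (8.95 to 10.81), OAS2 most among the high NEFA pools (7.12 to 8.25), and in each panel the groups overlap.

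OAS2 was dimmer, and its difference was present in 1 dye orientation. Its median pixel intensity in the high NEFA pools was 316, 208, 253 and 300 on replicates 1 to 4, against 285, 232, 403 and 461 in the controls. The probe was above background in 4 of 4 control channels and in 2 of 4 high NEFA channels, those of replicates 3 and 4. The normalized level was 7.68, 7.12, 8.04 and 8.25 in the high NEFA pools, with a mean of 7.77 ± 0.49 (SD, n = 4). In the controls it was 8.36, 8.10, 8.09 and 8.23, with a mean of 8.19 ± 0.13 (SD, n = 4). The control pools were close together, the high NEFA pool of replicate 4 lay among them, and that of replicate 3 just below the lowest.

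The OAS2 ratio was -0.68 and -0.98 on replicates 1 and 2, where the high NEFA pool carried Cy3. There the high NEFA spot was also not above background. On replicates 3 and 4, where the high NEFA pool carried Cy5 and its spot was above background, the ratio was -0.04 and 0.02. The means per orientation were -0.83 and -0.01. The fitted ratio was -0.42 ± 0.13 (SE, n = 4) with a dye term of 0.41, so for this gene dye and exposure terms were of nearly the same size. A dye term of at least that size, in either direction, was found for 1624 of 6213 genes (26.1%). Between pools of the same dye, high NEFA minus control was -0.76 in Cy3 and -0.09 in Cy5.

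IRF7 was bright in every pool and had the smallest difference of the 3 genes. Its median pixel intensity was 1836, 2284, 1516 and 1367 in the high NEFA pools and 1866, 1438, 2920 and 2509 in the controls, above background in all 8 channels. The normalized level was 10.54, 11.05, 10.78 and 10.45 in the high NEFA pools and 11.05, 10.92, 11.21 and 10.84 in the controls. The high NEFA pool of replicate 2 was as high as the controls, and the other high NEFA pools were below every control. The group means were 10.70 ± 0.27 and 11.01 ± 0.16 (SD, n = 4 each).

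The IRF7 ratio was -0.51, 0.12, -0.43 and -0.39 on replicates 1 to 4. It was thus negative on 3 arrays, as the OAS2 ratio was, though not on the same 3. The fitted ratio was -0.30 ± 0.14 (SE, n = 4), a 1.23-fold higher level in the controls, with a dye term of -0.11. It was -0.15 without replicate 1 and -0.46 without replicate 2. A negative ratio on at least 3 of the 4 arrays was found for 5749 probes (23.5%).

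The arrays with the largest differences were only partly shared. OAS1 had its most negative ratios on replicates 1 and 4, OAS2 on replicates 1 and 2, and IRF7 on replicates 1, 3 and 4. Replicate 1 was the only array with a ratio of -0.50 or lower for all 3 genes. Replicate 3 was also negative for all 3, at -0.15 for OAS1, -0.04 for OAS2 and -0.43 for IRF7. In none of the 3 did the high NEFA pools all lie below the control pools, a separation seen for 144 of 24453 probes (0.589%).

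The ratios of OAS2 and IRF7 depended on how the pixels of a spot were summarised. With the mean in place of the median pixel intensity of spot and background, the OAS2 ratio was -0.12, -0.03, 0.02 and 0.05 on replicates 1 to 4, and its fitted ratio -0.02 ± 0.03 (SE, n = 4). IRF7 had 0.08, 0.23, -0.34 and -0.25, with a fitted ratio of -0.07 ± 0.04. The sign of IRF7 then followed the dye orientation, positive on both arrays with high NEFA in Cy3 and negative on both with it in Cy5. OAS1 kept its negative sign on every array, at -1.21, -0.14, -0.17 and -1.08, with a fitted ratio of -0.65 ± 0.26. Here the variances were moderated anew, so these SE should not be set against those from the median. With the mean, 447 of 24453 probes (1.83%) were lower on all 4 arrays.

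The scanner values show where the summaries part. The OAS2 spot of the high NEFA pool on replicate 2 had a median of 208 and a mean of 302, and on replicate 1 a median of 316 and a mean of 348. In the OAS2 control channels the median was above the mean, for example 461 against 381 on replicate 4. So it was in the high NEFA channels of replicates 3 and 4, at 253 against 245 and 300 against 274. Over the 8 channels, log2 of mean over median ran from -0.28 to 0.54 for OAS2, from -0.42 to 0.07 for IRF7 and from -0.38 to 0.04 for OAS1. For all tested probes its absolute value had a median of 0.16 and a 95th percentile of 0.40. The local background was 26 to 49 around OAS1, 26 to 45 around OAS2 and 30 to 50 around IRF7, far below the spots themselves. The negative control spots set a higher floor. On replicate 2 they averaged 241 in Cy3, above the OAS2 high NEFA median of 208. On replicate 1 the OAS2 high NEFA median of 316 lay below the background threshold of 349. None of the 3 spots was marked to be ignored on any array.

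**Figure D3:**
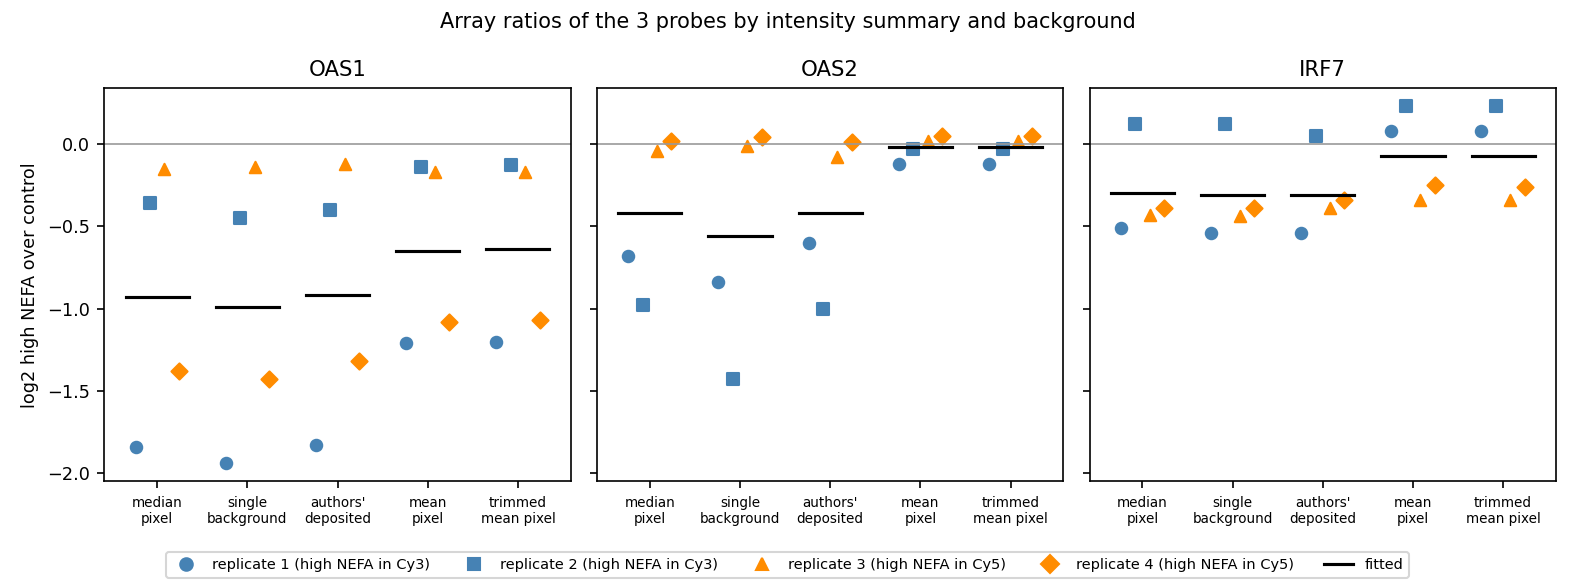
Ratio of high NEFA over control (log2) of OAS1, OAS2 and IRF7 on each array, marker shape for the replicate and colour for the dye of the high NEFA pool, with a bar for the fitted ratio, under 5 ways of obtaining the intensities. OAS1 stays below 0 on every array, whereas OAS2 moves from a fitted -0.42 to -0.02 and IRF7 from -0.30 to -0.07 when the mean pixel intensity replaces the median.

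The rest of the pathway was taken from a list of 48 other interferon genes on the array, 25 of them with a tested probe. In the limma fit over all probes, 0 of the 25 passed a Benjamini-Hochberg adjusted p of 0.05, as did 0 of all 24505 tested probes (0%). At an unadjusted p under 0.05 there were 3 of the 25 (PSME2, TLR7 and IFI30), and 1570 of all probes (6.41%). Of the 25 genes 11 were lower after exposure and 14 higher, with a median ratio of 0.02, against a median of -0.01 and 52.8% lower among all 6224 tested genes. Lower on all 4 arrays were 2 of the 25, against 251 of 6213 genes (4.04%), and 0 were higher on all 4, against 220 of 6213 genes (3.54%). The median over the list was -0.09, -0.11, 0.13 and 0.21 on replicates 1 to 4, so its sign went with the dye orientation. Over all genes the medians were -0.05, -0.04, 0.03 and 0.04.

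**Figure D4:**
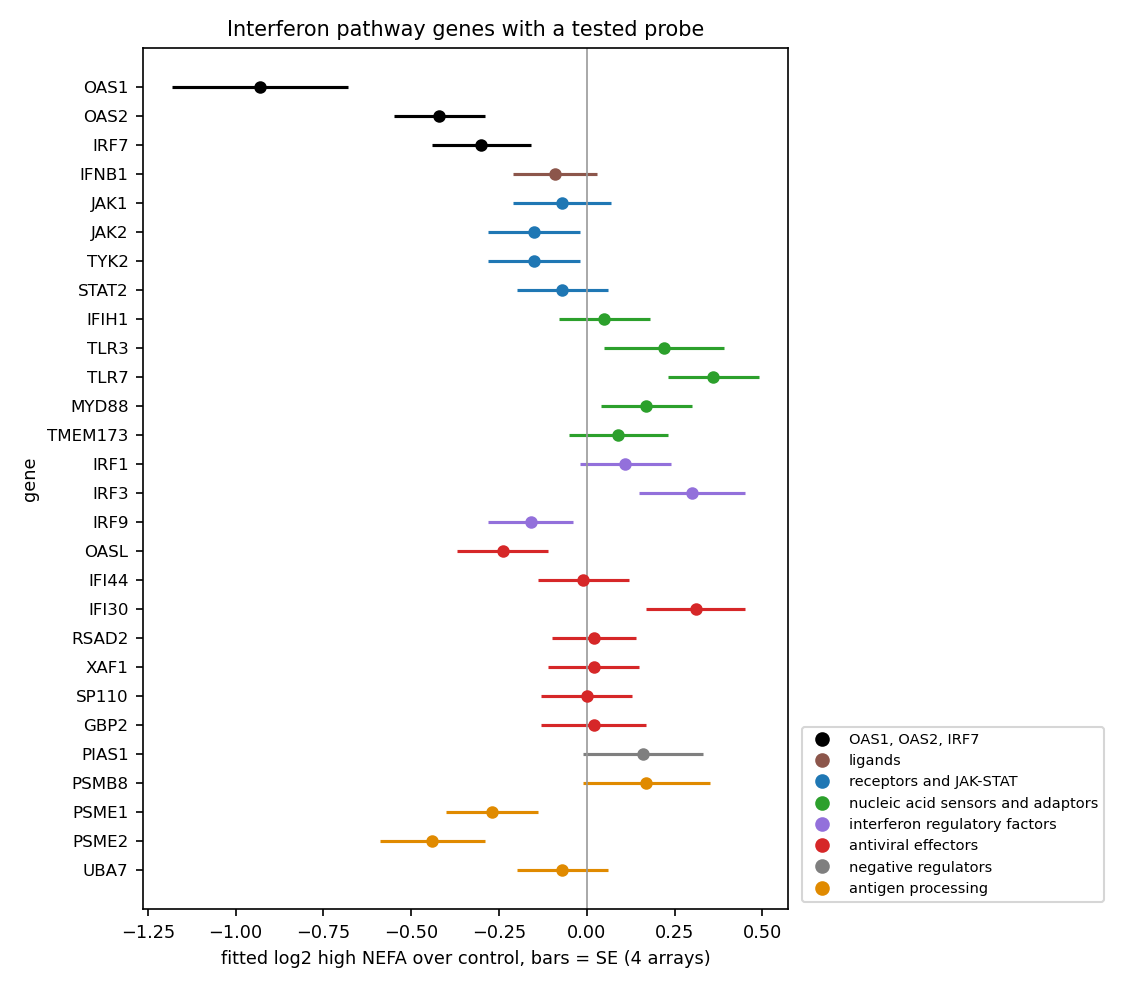
Fitted log2 ratio of high NEFA over control with its SE (4 arrays) for OAS1, OAS2 and IRF7, in black, and for the 25 other interferon pathway genes with a tested probe, coloured by role. The 3 genes, chosen for their negative ratio, lie at -0.93, -0.42 and -0.30, while the others run from -0.44 for PSME2 to 0.36 for TLR7 on either side of 0.

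Of the ligands, the type I interferon gene IFNB1 was measured and had a ratio of -0.09 ± 0.12 (SE, n = 4 here and for each gene below). IFNG, which encodes type II interferon, exceeded background in 3 high NEFA channels and 0 control channels, too few for the test and no measure of a group difference. Receptor signalling was represented by 4 tested genes, all above background in all 8 channels. JAK2 had -0.15 ± 0.13 and TYK2 -0.15 ± 0.13, both kinases bound to cytokine receptors. JAK1 had -0.07 ± 0.14 and STAT2, the STAT protein that pairs with IRF9 in the response to type I interferon, -0.07 ± 0.13. Of all 6224 tested genes, 52.8% were lower. All 4 receptor signalling genes were on the lower side, each by less than 2 SE. With the mean pixel intensity they had -0.12 ± 0.05 for JAK2, -0.09 ± 0.03 for STAT2, -0.05 ± 0.04 for TYK2 and -0.04 ± 0.04 for JAK1. The limit of 2 SE held there for TYK2 and JAK1 but not for JAK2 and STAT2. In that fit 0 of all tested probes passed the limma adjusted p of 0.05.

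Fitted ratios above 0 were found for the 5 tested sensors and adaptors, from 0.05 to 0.36, and for 2940 of all 6224 tested genes. With the mean pixel intensity this direction was not shared, at 0.21 for TLR7, 0.12 for TLR3, 0.01 for IFIH1, 0.00 for MYD88 and -0.10 for TMEM173. TLR7, an endosomal receptor for single-stranded RNA, had 0.17, -0.12, 0.62 and 0.77 on replicates 1 to 4, with a fitted ratio of 0.36 ± 0.13, with a limma adjusted p of 0.766. TLR3, which binds double-stranded RNA, had 0.22 ± 0.17, and IFIH1, a cytoplasmic RNA helicase that detects long double-stranded RNA, 0.05 ± 0.13. The IFIH1 ratios were -0.18, -0.10, 0.38 and 0.11 on replicates 1 to 4, and those of MYD88 -0.33, -0.64, 0.86 and 0.80. In both genes the sign followed the dye orientation. TLR3 and MYD88 each exceeded background in 3 high NEFA and 2 control channels. TMEM173, the adaptor also called STING, had 0.09 ± 0.14 at its brightest probe, and its other tested probes had 0.10 ± 0.21 and -0.09 ± 0.14. Most sensors were dim: 7 of 12 on the array were not tested, among them MAVS and ZBP1, which were above background in no channel.

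The other regulatory factors had ratios of either sign. IRF3, the constitutive factor that starts interferon transcription, had 0.28, -0.37, 0.80 and 0.49 on replicates 1 to 4, with a fitted ratio of 0.30 ± 0.15 (0.11 ± 0.08 with the mean pixel intensity). IRF1 had 0.11 ± 0.13. IRF9, the DNA-binding partner of STAT2, was lower on all 4 arrays by small amounts, at -0.07, -0.02, -0.36 and -0.19, with a fitted ratio of -0.16 ± 0.12 and a second tested probe at -0.14 ± 0.15. The limma adjusted p was 0.766, 0.872 and 0.826 for IRF3, IRF1 and IRF9.

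Among 17 antiviral effectors on the array, 7 were tested, 2 lower and 5 higher, with a median of 0.02. OASL, the remaining OAS family gene on the array, lacks the family's enzymatic activity in humans. Its ratio was -0.05, 0.11, -0.62 and -0.40 on replicates 1 to 4, so that it was low on the arrays where OAS2 was not. Its fitted ratio was -0.24 ± 0.13 (adjusted p 0.769 by limma), and it exceeded background in 2 high NEFA and 3 control channels. IFI30, a lysosomal thiol reductase, had 0.31 ± 0.14, SP110, a nuclear body protein, 0.00 ± 0.13 (second probe -0.21 ± 0.13), RSAD2, known as viperin, 0.02 ± 0.12, and IFI44 -0.01 ± 0.13. Several strongly inducible genes had little signal and were not tested: IFIT1 and CXCL10 were above background in no channel. MX2 was above it in 2 control channels and CMPK2 in 1, with 0 high NEFA channels each. IFIT2 and IFIT5 were above it in 2 high NEFA channels and IFIT3 in 1, with 0 control channels each. Elsewhere in the list, IRF2 was above it in 2 control channels and IFNK and CISH in 1, with 0 high NEFA channels each. The share of all probes above background in only 1 group was not examined. These counts, and that of IFNG, are therefore no measure of a group difference.

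In the antigen processing group, PSME2 had the most negative ratio of the list. It encodes the beta subunit of the interferon-inducible proteasome activator PA28. Its ratios were -0.50, -0.38, -0.79 and -0.11 on replicates 1 to 4, with a fitted ratio of -0.44 ± 0.15 and a limma adjusted p of 0.766. With the mean pixel intensity the fitted ratio was -0.24 ± 0.07. PSME1, the alpha subunit of the same complex, had 0.06, -0.11, -0.38 and -0.65, with a fitted ratio of -0.27 ± 0.13 (-0.25 ± 0.07 with the mean). The immunoproteasome subunit PSMB8 had 0.17 ± 0.18 and UBA7, which activates ISG15, -0.07 ± 0.13. PIAS1, a negative regulator of cytokine signalling, had 0.16 ± 0.17.

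Across the list 18 of 48 genes (37.5%) exceeded background in every one of the 8 channels, and so did 38.7% of all genes with a symbol.

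OAS2 and OAS1 lie next to each other on chromosome 14 of the RefSeq annotation of Sscrofa11.1, with RPH3A beside OAS1 and SLC8B1 beside OAS2. The nearest tested gene on the OAS1 side, RPH3A, had 0.02, 0.28, -0.51 and -0.54 on replicates 1 to 4, with a fitted ratio of -0.19 ± 0.13. On the OAS2 side it was TPCN1, with 0.36, 0.56, 0.18 and -0.26 and a fitted ratio of 0.21 ± 0.13. These neighbours were chosen by position after the values of the OAS genes were seen.

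The genes with the most similar array ratios were found by the root mean square difference over the 4 arrays among 6210 other genes. For OAS1 the nearest genes were SLAMF1 and SOX15 at 0.66, GNA13 at 0.67, and SLC35C1 and AS3MT at 0.69, against a median of 1.23 over all genes. SLAMF1 was low on replicate 1, with -1.38, but had -0.29 on replicate 4, where OAS1 had -1.38. OAS2 had closer neighbours, VANGL1 at 0.12, PCYT1B and DDX54 at 0.14, and STX7 and UHRF1 at 0.15 (median 0.65). All 5 had ratios between -1.04 and -0.48 on replicates 1 and 2 and between -0.21 and 0.21 on replicates 3 and 4. IRF7 was nearest to RAB8A at 0.07, TSSK1B and EMX1 at 0.08, POPDC2 at 0.11 and USP37 at 0.12 (median 0.55). Of these nearest genes, SLC35C1, AS3MT, VANGL1, DDX54, STX7, RAB8A and POPDC2 were above background in all 8 channels. The others were dimmer, with SLAMF1 and PCYT1B above it in 7 channels and GNA13, EMX1 and USP37 in 6. UHRF1 and TSSK1B were above it in 5, and SOX15 in 4, the minimum for testing. A small difference here means alike ratios on 4 arrays, which share dyes and normalization.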

How the data were processed

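The authors deposited, per the file headers, the median, mean and trimmed mean pixel intensity of each spot and its local background at 532 nm and 635 nm, without background subtraction or normalization. Which image software made them is not given in the labels or headers. Their deposited log2 ratios, for which the submitters' processing notes name limma, state neither scale nor direction. The columns followed the log2 Cy5 over Cy3 ratio after background subtraction and loess (r 0.975 to 0.994 over probes), with column medians of 0.0022, 0.0083, 0.0088 and 0.016, and served as an alternative after turning by dye.

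Median intensities were corrected by normexp (offset 50) and normalized by loess within arrays (limma 3.58.1, R 4.3.3), with control spots at weight 0. Levels were also scaled between arrays (Aquantile). Probes above background in at least 4 of 8 channels were tested (24505). The fit had an exposure term signed by dye and a dye intercept, with two-sided Benjamini-Hochberg adjustment, 2 residual and 7.84 prior degrees of freedom. The script was tested on simulated data. The number of arrays limits the precision; the median SE was 0.134.

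Symbols came from the platform table (13146 probes with 1 symbol, 0 with several, 30648 with none), with 163 updated through RefSeq synonyms. A gene was represented by its tested probe of highest mean log2 intensity. Named by rule were the 3 genes, the 4 brightest tested genes of each role, those past the threshold or at least 1.5-fold with 1 direction on all 4 arrays, the other OAS genes and the 5 nearest genes by array ratios. MYD88 and the untested list genes in the text were named outside this rule, as were the cell type markers and chromosome neighbours. The genes and lists were chosen with earlier results of these data known. Alternatives covered background, pixel summary, normalization, dye term, filter and each array left out; the trimmed mean was added after the data were seen. No array was left out of the reported fit.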

Additional observations from a re-analysis of the deposited data

Results flagged for a closer look

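PIAS1, a negative regulator of cytokine signalling, had a ratio of -0.63 on replicate 1, far from its ratios of 0.39 to 0.48 on the other 3 arrays. The gap was 0.92 of the range of the 4 values, above Dixon's critical value for 4 values. Of 31 sets of 4 values examined, this was the only one past that limit, and chance flags about 1 in 20.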

How the results depend on the processing

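The fitted ratio was negative for OAS1 and IRF7 in all 16 alternatives and for OAS2 in the 15 that kept its probe. The filter on all 8 channels had removed OAS2. Scaling between arrays, omitting the dye term and changing the filter could not alter a fitted ratio. It stayed at -0.93 for OAS1, -0.42 for OAS2 where kept, and -0.30 for IRF7 under these. The genes were chosen for a negative ratio, so the shared sign is a description and no support. Apart from arrays left out, OAS1 ranged from -0.99 to -0.64, OAS2 from -0.56 to -0.02 and IRF7 from -0.31 to -0.07, each with its weakest value at the mean or trimmed mean pixel intensity. With 1 array left out the ranges were -1.30 to -0.56, -0.50 to -0.35 and -0.46 to -0.15. The OAS2 spots lay near background.

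The count of probes past the adjusted threshold, 0 in the reported fit, was 4 with an offset of 16, 6 with plain subtraction, 3 with the authors' deposited log2 ratios, 5 without a filter and 21 to 77 with 1 array left out (77, 70, 36 and 21 without replicates 1 to 4). The cause was not tested. Without a filter, 22 of the 48 interferon list genes were lower and 26 higher, since all were then included. The list median lay between -0.02 and 0.04 throughout.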
